A study of Mus musculus with 6 samples.

Results

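Nuclear pore and mRNA export genes were followed in whole bone marrow of leukemic mice with a Nup98 fusion transgene, as Gfi1-KD against Gfi1-KI. The members are 9 genes, Nup214, Nupl2, Gle1, Tpr, Nup50, Mcm3ap, Poldip3, Nxt2 and Nxf2, matched by their exact symbol in the comparison table that the authors deposited. They are 9 of 1512 genes that the table names by a single symbol, and 10 probe sets measure them. The members were chosen by their RMA values on these arrays: the table holds the 4.41% of 45101 measured probe sets with an unadjusted p-value under 0.05 between the genotypes. The separation of the groups is therefore a condition of their choice, and values in either direction are given as descriptions. All were adult mice with a Vav-1 Nup98/HoxD13 transgene (the Vav-1 promoter is active in blood cells), and the study states that their ages were the same without giving the age here. The genotype was Gfi1 KI in 3 mice and Gfi1 KD in the other 3. As background, the human GFI1 coding sequence replaces the mouse gene in the KI line, and the KD line carries the same kind of allele with reduced expression. Each mouse gave 1 Affymetrix mouse expression array from 200 ng of total RNA, taken after red cells had been lysed. Gfi1 itself is named by no filled row, so its level was not analysed here.

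The nuclear pore is the channel through which all mRNA leaves the nucleus. Export receptors of the Nxf family, paired with a small Nxt protein, carry mRNA through a mesh of phenylalanine-glycine repeats, after adaptors of the TREX and TREX-2 complexes have loaded them. The nuclear basket receives the particle and the cytoplasmic filaments strip the receptor from it. Pore genes are recurrent partners in leukemia fusions: NUP98 is joined to HOX genes, as in the transgene of these mice, and human NUP214 is joined to DEK or SET.

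The 6 arrays had a median MAS5 signal between 117.0 and 148.1. Gfi1-KI replicate 2 stood apart, with a mean Pearson r of 0.905 with the other arrays over probe sets, against 0.918 to 0.928 for each of the other 5. Each of the 10 probe sets had the same direction with that array left out, in both summaries. Sizes without it are given with the values of Tpr and Nxt2, and other sizes moved too. In MAS5 the log2 difference of Mcm3ap was -0.58 with all arrays and -0.70 without that array, and that of Gle1 -0.23 and -0.32. In RMA that of Nup50 was -0.48 and -0.40. In RMA, and in MAS5 for the 5 probe sets whose groups do not overlap, the direction could not have changed. The labelled tissue was checked against markers named by the same table. Csf1r and Ctss, which mark monocytes, had MAS5 signals of at least 10917 and 12777 on every array with their brightest probe sets. Markers of progenitors and megakaryocytes were not named, which says nothing of their presence, because the table names only probe sets with a p-value under 0.05 between the genotypes. Of 13 monocyte markers 6 were named, all with a higher mean in Gfi1-KD, and their summed MAS5 signal ranged over 57844 to 83717 in the Gfi1-KD arrays and over 28843 to 43743 in those of Gfi1-KI. Of 12 neutrophil markers 2 were named, Ltf and Lrg1, with a summed signal between 309 and 4269 in the Gfi1-KD arrays and between 18375 and 38877 in those of Gfi1-KI. These sums take the brightest probe set of each gene, and none of the named markers was at 0. The single named genes from the marker lists of red cells, B cells and stroma were Epb4.1 (Gfi1-KD 1373 to 1646, Gfi1-KI 1817 to 3323), Pax5 (90.4 to 116.8 and 23.2 to 129.6) and Pecam1 (1541 to 2304 and 709 to 1134). Whether these genes mark only those cells was not tested. These markers too are named because of their p-value on the same arrays, and the part of these marker differences in the values below was not tested. In whole marrow, fewer cells of a type and less RNA per cell cannot be told apart.

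Most of the pore and export genes had a lower mean in Gfi1-KD. Lower were all pore proteins among them (Nup214, Nupl2, Gle1, Tpr, Nup50) and the nuclear adaptors Mcm3ap and Poldip3, which makes 8 probe sets of 7 genes. Higher were the receptor subunits Nxt2 and Nxf2. The whole deposited list held 854 probe sets that were lower (1.89% of all measured) and 1135 that were higher (2.52%), so 42.9% of the listed ones were lower. The median log2 RMA difference was -0.32 over the 10 probe sets and 0.14 over all listed ones. The differences were small: apart from Nxt2, which was 1.91-fold higher in the authors' deposited table, the ratios there ran from 0.719 to 0.889 for the lower and 1.21 for Nxf2. Unadjusted p-values in the authors' deposited table ran from 0.00602 for Nup214 to 0.0462 for Nup50, the member nearest to the limit of 0.05, and all had a step-up adjusted p of 0.911. Genes just outside that limit were not analysed here.

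**Figure D1:**
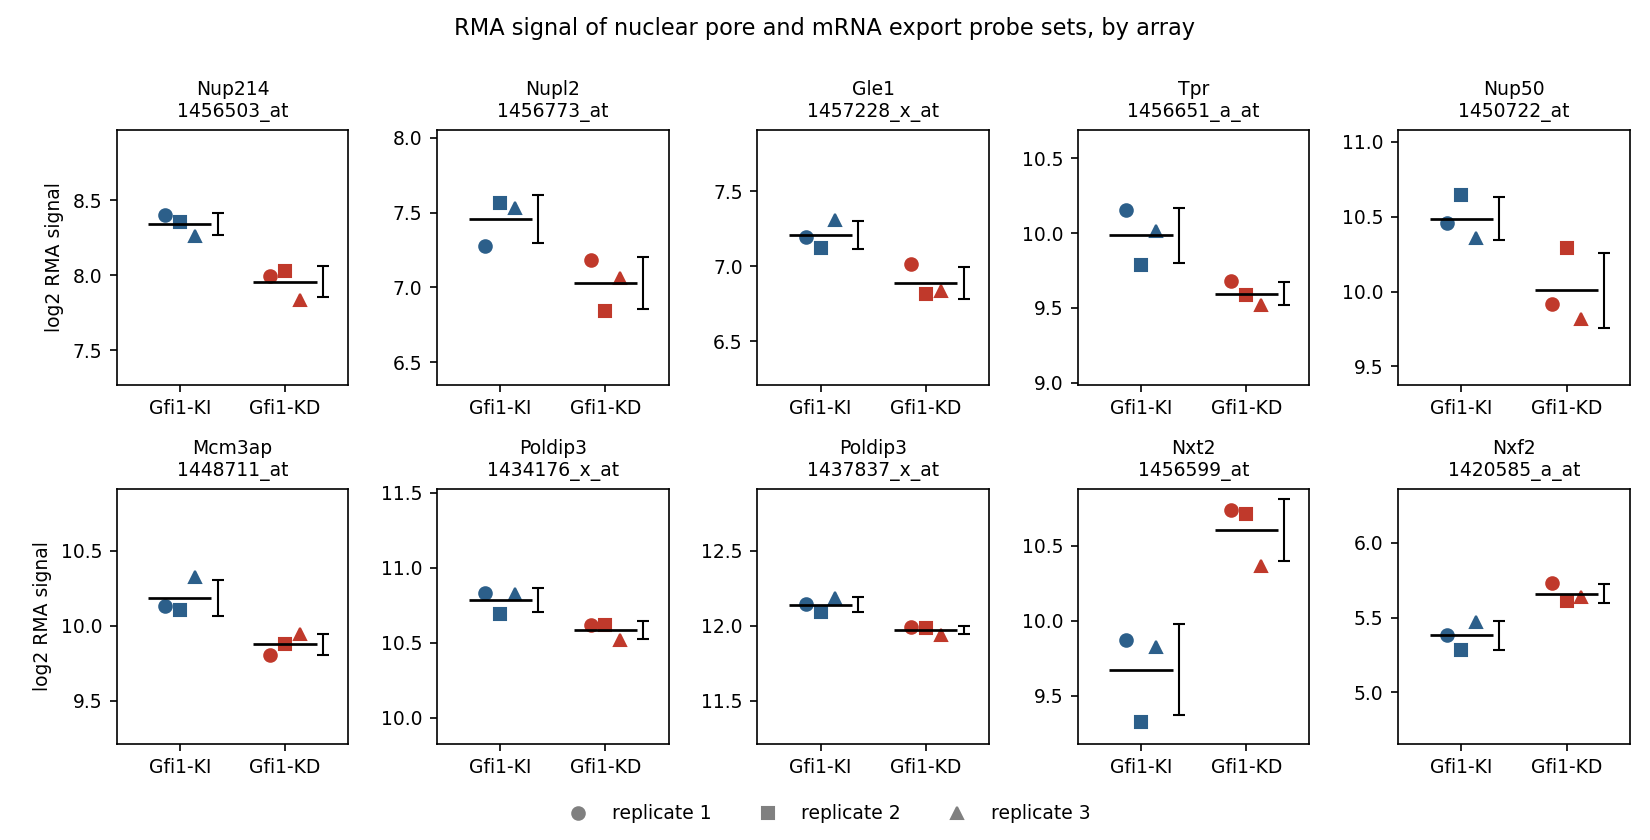
Log2 RMA signal (y axis) of each of the 10 probe sets on the 3 Gfi1-KI arrays (blue) and 3 Gfi1-KD arrays (red), with a marker shape per replicate, the group mean as a line and the SD as a bar. All panels span the same range of log2 units, and the 2 receptor subunits are the only panels with red above blue; Nxt2 shows the widest gap and the widest spread in Gfi1-KI.

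The same arrays were also summarised with MAS5, and all 10 probe sets had the same direction there. That summary comes from the same scans and is not an independent measurement. The limma test with Benjamini-Hochberg adjustment, fitted on the MAS5 signals of all 22519 probe sets above a mean log2 signal of 6.95 (a signal of 124), called 0 of them (0%) at an adjusted p under 0.05 and 1217 (5.4%) at an unadjusted p under 0.05. Of the members, 9 were above this level filter, 0 passed and 3 had an unadjusted p under 0.05 (Mcm3ap, Tpr and Nxt2). Adjusted p-values of these 9 ran from 0.865 to 0.920. The groups did not overlap in 5 of the 10 probe sets, 3 of them lower in Gfi1-KD and 2 higher. Nxf2, among the latter, was below the level filter, so 4 of the 9 tested did not overlap. Over all tested probe sets the groups did not overlap in 4.57% with Gfi1-KD lower and in 6.77% with Gfi1-KD higher, 11.3% in either direction. In the RMA signals they overlapped in none of the 10, as in 99.9% of the listed rows, which follows from the selection.

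**Figure D2:**
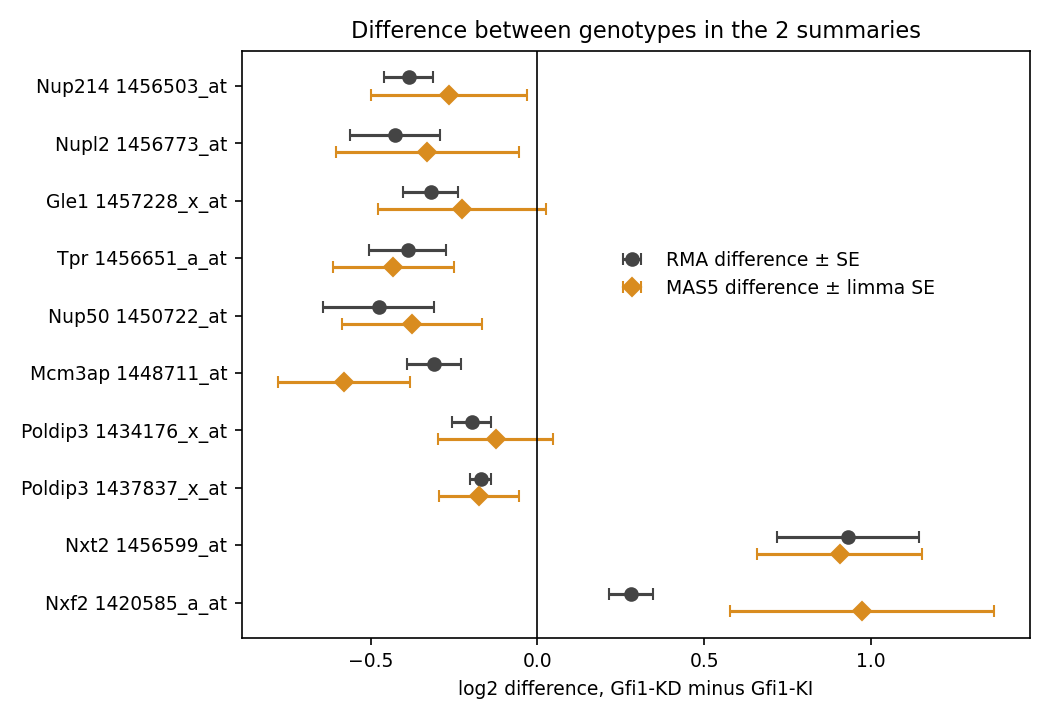
Log2 difference, Gfi1-KD minus Gfi1-KI (x axis), for the 10 probe sets (y axis), from RMA signals (circles, with the SE from the group SDs) and MAS5 signals (diamonds, with the SE of limma). The limma SE of Nxf2 is from a fit without the level filter. Both summaries place the same 8 probe sets below 0 and the same 2 above, and they differ most in size for Nxf2 (0.28 against 0.97) and Mcm3ap (-0.31 against -0.58).

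Nup214, Nupl2 and Gle1 act at the cytoplasmic face of the pore. Nup214 is the large filament protein that binds export receptors, Nupl2 (also called Nup42) is a repeat protein that anchors Gle1, and Gle1 switches on the helicase that removes export factors from the arriving mRNA. The promoters of Nup214 and Gle1 are shown because both genes lie on chromosome 2 and had lower means. They are the 250 bases before a start site in RefSeq (build GRCm38.p6, + strand), at chr2:31974200-31974449 for Nup214 and chr2:29935159-29935408 for Gle1. The window of Nup214 runs past the start of its gene interval (chr2:31974408), so the start site used lies inside the gene. Capitals mark AATC, the core of the Gfi1 binding motif, and CCAAT, on either strand.
Nup214: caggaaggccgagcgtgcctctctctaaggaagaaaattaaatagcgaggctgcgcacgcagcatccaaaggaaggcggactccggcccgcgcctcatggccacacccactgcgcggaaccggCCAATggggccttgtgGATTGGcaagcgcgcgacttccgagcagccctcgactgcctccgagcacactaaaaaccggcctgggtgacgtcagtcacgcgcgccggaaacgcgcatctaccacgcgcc
Gle1: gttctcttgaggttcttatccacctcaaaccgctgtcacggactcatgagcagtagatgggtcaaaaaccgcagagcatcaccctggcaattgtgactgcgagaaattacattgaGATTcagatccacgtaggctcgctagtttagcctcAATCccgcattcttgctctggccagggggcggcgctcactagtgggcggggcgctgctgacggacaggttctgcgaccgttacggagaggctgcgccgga

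Nup214 (Entrez 227720) had log2 RMA signals of 7.997, 8.03 and 7.84 in Gfi1-KD replicates 1 to 3 and 8.40, 8.36 and 8.26 in Gfi1-KI replicates 1 to 3. No Gfi1-KD array reached the lowest Gfi1-KI array, and the mean log2 difference was -0.39 ± 0.07 (SE, n = 3 each), or 1.31-fold. The MAS5 signals of Nup214 were 511, 514 and 410 in Gfi1-KD and 674, 575 and 482 in Gfi1-KI. Here the groups overlapped, because Gfi1-KI replicate 3 lay under 2 of the Gfi1-KD arrays, and the log2 difference was -0.26 ± 0.23 (limma SE). It was -0.15 without Gfi1-KI replicate 1.

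Nupl2 (Entrez 231042) had log2 RMA signals of 7.18, 6.84 and 7.06 in Gfi1-KD and 7.27, 7.56 and 7.53 in Gfi1-KI. Gfi1-KD replicate 1 and Gfi1-KI replicate 1 almost met. In MAS5 the signals were 330, 201 and 314 in Gfi1-KD and 345, 350 and 342 in Gfi1-KI, where the SD was only 4.42. The MAS5 log2 difference of -0.33 ± 0.27 (limma SE) rested largely on Gfi1-KD replicate 2, and without that array it was -0.10.

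Gle1 (Entrez 74412) had log2 RMA signals of 7.01, 6.81 and 6.84 in Gfi1-KD and 7.19, 7.12 and 7.31 in Gfi1-KI. The mean difference was -0.32 ± 0.08 (SE), with no overlap. The MAS5 signals of Gle1 were 402, 293 and 282 in Gfi1-KD and 422, 331 and 382 in Gfi1-KI. Gfi1-KD replicate 1 was above 2 of the Gfi1-KI arrays, and the log2 difference of -0.23 ± 0.25 (limma SE) was no larger than its error. Leaving out Gfi1-KD replicate 3 gave -0.13, and leaving out Gfi1-KD replicate 1 gave -0.39. The helicase gene Ddx19b, whose product Gle1 activates, was also listed. Its log2 RMA signals were 8.87, 8.80 and 8.77 in Gfi1-KD and 8.97, 9.20 and 9.15 in Gfi1-KI, and its MAS5 signals did not overlap either (655 to 754 and 901 to 947). With it, 4 of the 7 genes in the list of the cytoplasmic face are named by the table, and each has a lower mean in Gfi1-KD. Being named requires an unadjusted p under 0.05 on these arrays, which 4.41% of all probe sets met (1.89% with a lower mean), and 42.9% of the listed probe sets were lower. Nothing is read from the count, since the same contrast chose the genes.

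Tpr and Nup50 belong to the nuclear basket. Tpr forms the coiled-coil filaments of the basket, and Nup50 is a mobile protein that helps importin alpha release its cargo. The promoter of Tpr, 250 bases at chr1:150392588-150392837 (GRCm38.p6, + strand), is shown because Tpr was the basket gene that separated in both summaries. The window of Tpr also runs past the start of its gene interval (chr1:150392802). Capitals again mark AATC and CCAAT on either strand.
Tpr: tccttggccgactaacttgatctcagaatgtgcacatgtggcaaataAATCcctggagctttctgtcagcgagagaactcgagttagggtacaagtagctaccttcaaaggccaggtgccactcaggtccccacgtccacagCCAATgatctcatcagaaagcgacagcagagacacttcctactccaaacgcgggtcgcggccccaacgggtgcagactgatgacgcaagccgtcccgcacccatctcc

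Tpr (Entrez 108989) had log2 RMA signals of 9.68, 9.59 and 9.52 in Gfi1-KD and 10.15, 9.79 and 10.01 in Gfi1-KI. In MAS5 they were 1958, 1888 and 1806 in Gfi1-KD and 2858, 2220 and 2584 in Gfi1-KI. The groups did not overlap in either summary. The Gfi1-KD arrays were close together, and the spread was in Gfi1-KI, where replicate 2 was the lowest. The log2 difference was -0.39 ± 0.12 (SE) in RMA and -0.43 ± 0.18 (limma SE) in MAS5, with a limma unadjusted p of 0.0484 and an adjusted p of 0.865. Without Gfi1-KI replicate 2 the log2 differences were -0.49 and -0.53.

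Nup50 (Entrez 18141) had log2 RMA signals of 9.92, 10.29 and 9.82 in Gfi1-KD and 10.46, 10.64 and 10.36 in Gfi1-KI. This was the largest mean difference among the lower members in RMA, -0.48 ± 0.17 (SE), and also the one with the widest spread in Gfi1-KD. Its MAS5 signals were 2016, 2908 and 2087 in Gfi1-KD and 3152, 3175 and 2676 in Gfi1-KI. Gfi1-KD replicate 2 thus read like a Gfi1-KI array in MAS5. Without it the log2 difference was -0.54 in MAS5, against -0.38 ± 0.21 (limma SE) with all arrays.

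Mcm3ap and Poldip3 act inside the nucleus, before the pore is reached. Mcm3ap encodes GANP, the scaffold of the TREX-2 complex that links transcribed genes to the basket, and Poldip3 encodes an adaptor of the TREX complex (also called SKAR) that binds spliced mRNA. Mcm3ap (Entrez 54387) had log2 RMA signals of 9.80, 9.88 and 9.94 in Gfi1-KD and 10.13, 10.10 and 10.32 in Gfi1-KI. In MAS5 they were 1975, 1935 and 1965 in Gfi1-KD and 2814, 2479 and 3603 in Gfi1-KI. The Gfi1-KD values were nearly equal, with an SD of 20.6 on the MAS5 scale, while those of Gfi1-KI had an SD of 577. The groups were clear of each other in both summaries. The MAS5 log2 difference was -0.58 ± 0.20 (limma SE), with an unadjusted limma p of 0.0222 and an adjusted p of 0.865. It was -0.43 without Gfi1-KI replicate 3, and the RMA difference was -0.31 ± 0.08 (SE).

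Poldip3 (Entrez 73826) is the only member with a pair of listed probe sets, which share the gene and are not independent. The brighter one had log2 RMA signals of 11.99, 11.98 and 11.94 in Gfi1-KD and 12.15, 12.09 and 12.19 in Gfi1-KI. The dimmer one had 10.62, 10.62 and 10.52 in Gfi1-KD and 10.83, 10.69 and 10.83 in Gfi1-KI. The RMA differences were alike and small, -0.17 ± 0.03 and -0.20 ± 0.06 (SE). The MAS5 signals of both overlapped. For the brighter one they were 9784, 10673 and 9870 in Gfi1-KD and 11539, 10524 and 12224 in Gfi1-KI, and for the dimmer one 2920, 3295 and 3669 against 3316, 3506 and 3938. In MAS5 the log2 difference of the dimmer one was -0.12 ± 0.17 (limma SE), and -0.04 without Gfi1-KD replicate 1.

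**Figure D3:**
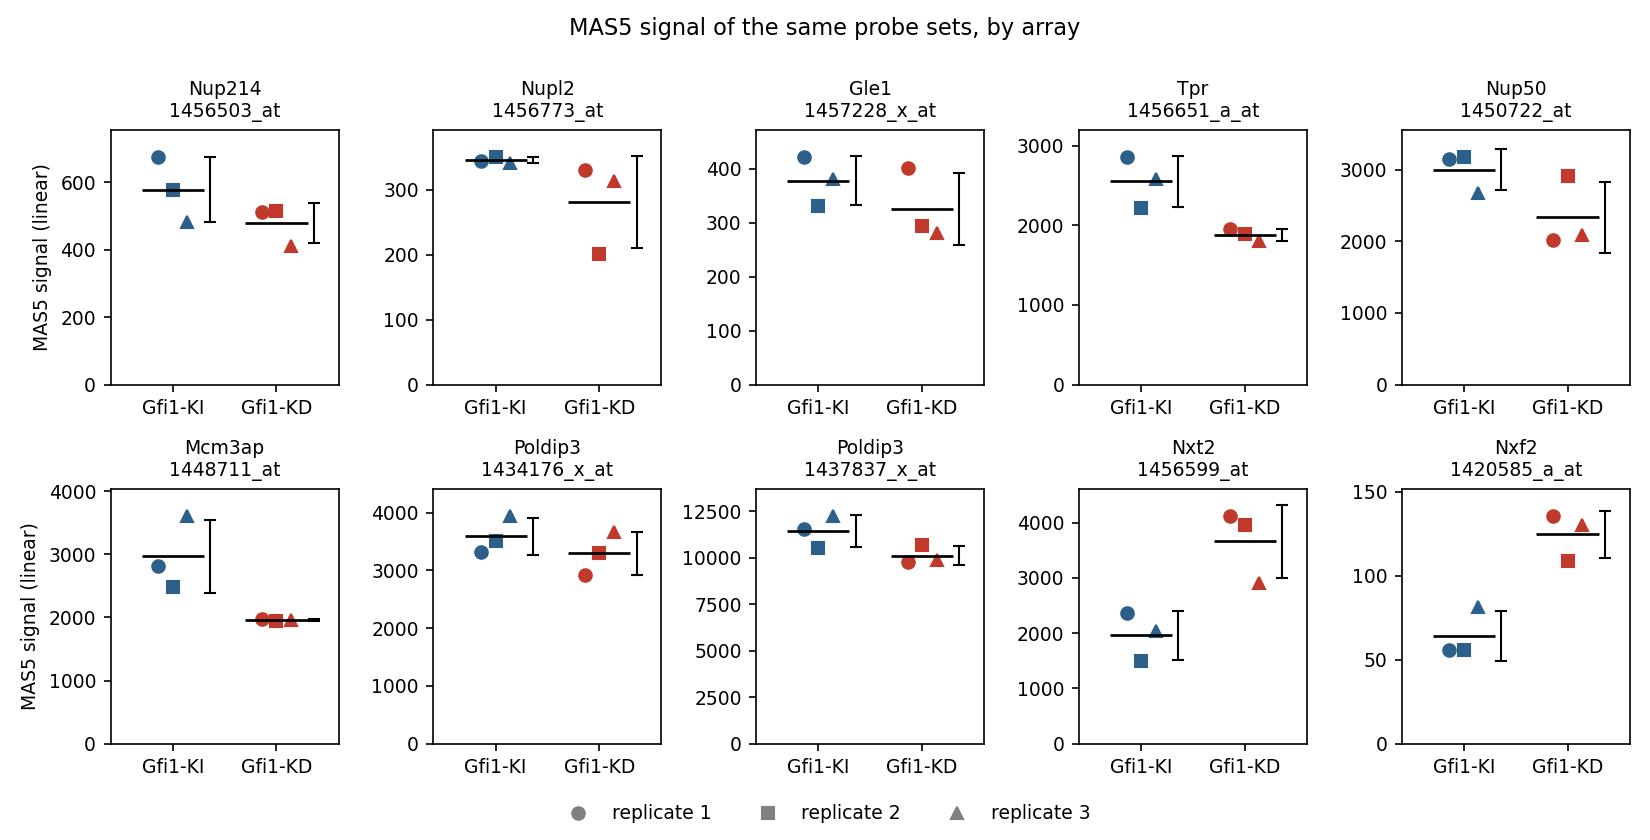
MAS5 signal on a linear scale that starts at 0 (y axis) of the same 10 probe sets on the 3 Gfi1-KI arrays (blue) and 3 Gfi1-KD arrays (red), with a marker shape per replicate, the group mean as a line and the SD as a bar. The groups are clear of each other for Nupl2, Tpr, Mcm3ap, Nxt2 and Nxf2 and overlap for the other 5 probe sets.

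Nxt2 and Nxf2 encode subunits of export receptors and were the members with higher means in Gfi1-KD. Nxt2 is a small partner that stabilises Nxf proteins, and Nxf2 is a relative of the general receptor Nxf1 that is known mainly from testis in the mouse. Both genes lie on the X chromosome. Of the 57 listed probe sets aligned to that chromosome 32 had a higher mean in Gfi1-KD (56.1%), against 57.1% of all listed ones. The promoter of Nxt2, 250 bases at chrX:142227687-142227936 (GRCm38.p6, + strand), is shown because Nxt2 had the largest RMA difference of all members. The window is at the first of the start sites matched here, and lies inside the gene interval (chrX:142226770-142239700). Capitals mark AATC and CCAAT on either strand.
Nxt2: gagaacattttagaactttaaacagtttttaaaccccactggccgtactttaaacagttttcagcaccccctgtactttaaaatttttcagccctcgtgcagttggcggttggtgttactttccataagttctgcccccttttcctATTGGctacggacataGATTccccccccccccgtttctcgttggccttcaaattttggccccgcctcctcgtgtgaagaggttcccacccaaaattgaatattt

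Nxt2 (Entrez 237082) had log2 RMA signals of 10.74, 10.71 and 10.37 in Gfi1-KD and 9.87, 9.32 and 9.83 in Gfi1-KI. Its MAS5 signals were 4115, 3960 and 2898 in Gfi1-KD and 2365, 1487 and 2038 in Gfi1-KI. Every Gfi1-KD array was above every Gfi1-KI array in both summaries. The size was close between them, 0.93 ± 0.21 (SE) in RMA and 0.91 ± 0.25 (limma SE) in MAS5 on the log2 scale, which is 1.91-fold and 1.87-fold. The limma unadjusted p was 0.00815 and the adjusted p 0.865. The lowest array was Gfi1-KI replicate 2, and without it the log2 differences were 0.76 in RMA and 0.72 in MAS5.

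Nxf2 (Entrez 83454) was dim, with log2 RMA signals of 5.73, 5.61 and 5.64 in Gfi1-KD and 5.39, 5.28 and 5.47 in Gfi1-KI. Its MAS5 signals were 135, 109 and 130 in Gfi1-KD and 55.6, 55.9 and 81.6 in Gfi1-KI. The groups did not overlap, but the mean signal lay below the level filter, so Nxf2 was not among the probe sets tested. The size depended on the summary: the log2 difference was 0.28 ± 0.07 (SE) in RMA and 0.97 ± 0.40 (limma SE) in MAS5. This limma SE is from a fit without the level filter, unlike that of the other members. Whether Nxf2 mRNA is present in these cells cannot be read from so low a signal.

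The part of each gene that the target of a probe set covers differed, which limits what its value says about the whole transcript. Each target is given as a span on the genome, and where the probes lie within it was not analysed here. Coordinates are those of the target alignments in the deposited table (NCBI build 38), with starts counted from 1. The target of Nup214 (chr2:31974450-31983227) lay in the first 11.1% of the gene (chr2:31974408-32053975), and that of Gle1 (chr2:29936139-29938941) between 3.04% and 14.7% of its gene (chr2:29935409-29959432). Both targets therefore lay in the 5' part of the gene, which is 79.6 kb long for Nup214 and 24 kb for Gle1. The targets of Nupl2 (chr5:24182976-24184014), Nxt2 (chrX:142238851-142239694) and the dimmer Poldip3 probe set (chr15:83125978-83126325, - strand) lay at the 3' ends of their genes, and that of Tpr (chr1:150435664-150440411) between 75.0% and 83.3% of its gene. Those of Nup50, Mcm3ap and Nxf2 spanned nearly the whole gene, and the brighter Poldip3 probe set has no alignment in the table. Gle1 and Nxt2 were assigned by overlap of the target with the genome (grade B in the table), while the other 8 probe sets were assigned by matching probes (grade A). The IDs of the Gle1 probe set and of both Poldip3 probe sets end in _x_at. Whether their probes also match other sequences was not tested. Other probe sets of these genes are unnamed here.

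Promoters of 8 of the 9 genes were matched in RefSeq, in 10 windows because Nxf2 and Nxt2 each have more than 1 start site. AATC (or GATT on the other strand) stood in 8 of the 10 windows and in at least 1 window of each of the 8 genes, higher and lower members alike, and 69.0% of 32851 windows of all genes hold it. The longer AAATCA (or TGATTT), which contains AATC, was in 0 of the 10, against 12.4% of all windows. CCAAT (or ATTGG) was in 5 of the 10 windows, against 33.8% of all. In Nup214 a GATT and an ATTGG overlap, starting 111 and 110 bases before the start site, and Nup50 has the same overlap at 39 and 38. These matches describe letters in a window and say nothing of binding.

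The rest of the transport pathway could be followed only where the deposited table names a gene. Over 6 lists of pore, mRNA export, importin and exportin, and exon junction genes, 16 of 122 genes were named, 12 with a lower and 4 with a higher mean in Gfi1-KD, and the members make up 9 of these. Over all probe sets 4.41% were listed, 1.89% as lower and 2.52% as higher, but a gene can have several probe sets, so these shares and the counts of genes are not the same quantity. The members were also chosen from the same table, so nothing is read from the counts. By list, 1 of 23 genes was named in that of scaffold and channel nucleoporins, namely Rae1, and 2 of 7 in that of the basket. Named were also 4 of 39 mRNA export genes, 5 of 33 importins, exportins and Ran genes and 0 of 13 exon junction genes. Nup98, a partner in the transgene's fusion, is among the 106 that are not named. Rae1, which binds Nup98, was listed with a higher mean (log2 RMA 3.96, 4.06 and 4.24 in Gfi1-KD and 3.89, 3.84 and 3.78 in Gfi1-KI), but at a low signal, and its MAS5 signals overlapped.

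Among the carriers of protein and small RNA, 4 of the 5 named genes had lower means in RMA, where 42.9% of all listed probe sets were lower. Xpot, the tRNA exportin, had log2 RMA signals of 10.12, 10.26 and 10.16 in Gfi1-KD and 10.46, 10.96 and 10.79 in Gfi1-KI, and a second probe set of it had a difference of -0.41, against -0.56. Xpo4, a protein exportin, had 7.28, 7.21 and 7.16 in Gfi1-KD and 7.84, 7.89 and 7.69 in Gfi1-KI. Both were lower on all Gfi1-KD arrays in RMA, but for Xpo4 the MAS5 signals overlapped (403 to 469 and 456 to 654). Kpna3, an importin alpha, had a log2 RMA difference of -0.44 and a MAS5 difference of -0.51. Ipo8, an importin beta relative, was lower by a log2 RMA difference of -0.17 only, and in MAS5 its difference was 0.01. Ipo9, another importin beta relative, had a higher mean, with 9.30, 9.36 and 9.51 in Gfi1-KD and 9.22, 8.86 and 8.89 in Gfi1-KI. These genes too were listed because of their p-value on the same arrays, so nothing is read from their count.

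**Figure D4:**
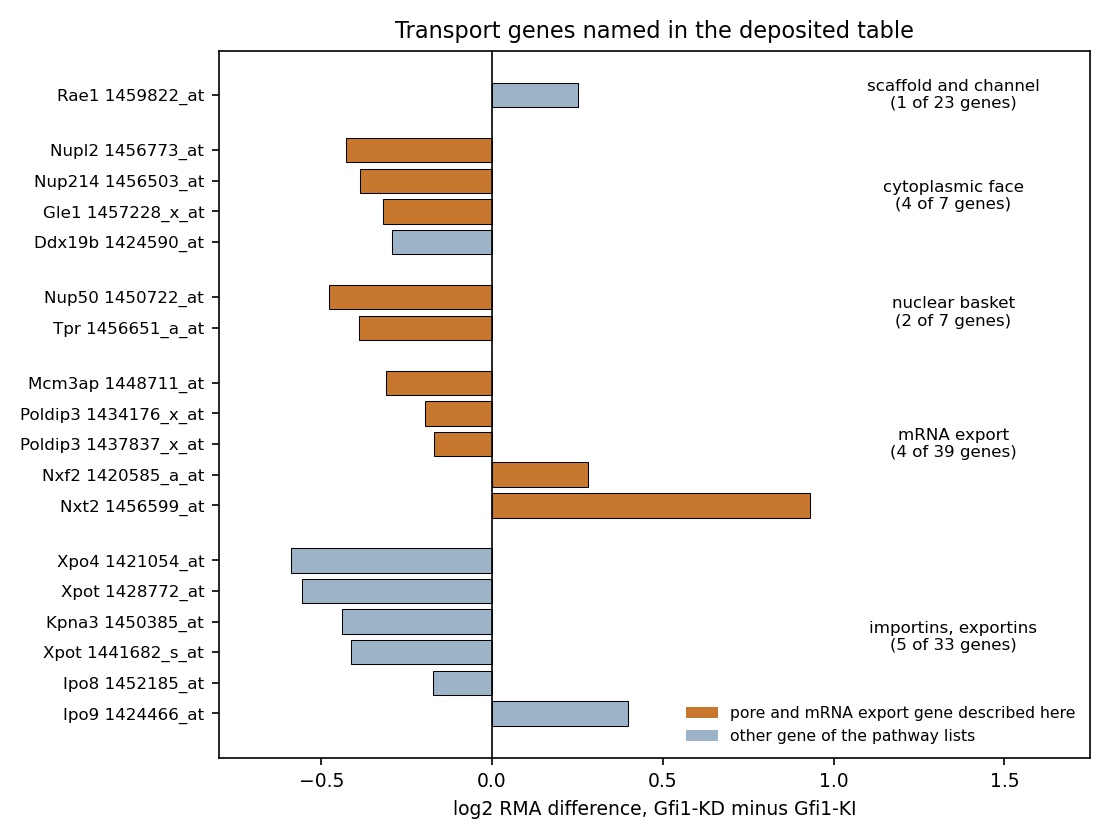
Log2 RMA difference, Gfi1-KD minus Gfi1-KI (x axis), of each probe set that the deposited table names in the lists of transport genes (y axis), with the members in orange, other listed genes in blue, and the number of named genes of each list at the right. The bars of the cytoplasmic face and the basket all point left, those of mRNA export and of importins and exportins point both ways, and 106 of 122 genes are not shown because they are unnamed.

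Variation among mice of 1 genotype entered the choice of the members through its size, since a small spread lowers the p-value, but not through which array was high or low. Deviations of each array from its own genotype mean in the RMA signals varied in direction from pair to pair. Over the 45 pairs of the 10 probe sets, the Pearson r of these deviations over 6 arrays had a median of 0.29 and ran from -0.75 (Nup214 with Mcm3ap) to 0.999 (the dimmer Poldip3 probe set with Nxt2). It was above 0 in 15 of the 28 pairs in which both members were lower in Gfi1-KD, with a median of 0.08. In the 16 pairs of a lower with a higher member it was above 0 in 12, with a median of 0.51. These are descriptions of few arrays, which the probe sets share. In RMA, Nxt2 and Poldip3 lay on opposite sides between the genotypes and still varied together within them. Both had their lowest Gfi1-KI value on replicate 2 and their lowest Gfi1-KD value on replicate 3. In MAS5 this held for Nxt2 (1487 and 2898), but not for the dimmer Poldip3 probe set. That one was lowest in Gfi1-KI on replicate 1 (3316) and highest in Gfi1-KD on replicate 3 (3669). The brighter one was lowest in Gfi1-KI on replicate 2 (10524) and in Gfi1-KD on replicate 1 (9784). In RMA, Gfi1-KI replicate 2 was the lowest of its group for 7 of the 10 probe sets, and Gfi1-KD replicate 3 for 6. Tpr varied with Nxt2 at an r of 0.91, which was 0.69 without Gfi1-KI replicate 2, while the r of Nxt2 with the dimmer Poldip3 probe set was 0.998 without it. Nup50 and Nupl2 went other ways, with Gfi1-KD replicate 2 the highest of its group for Nup50 (0.28 above the mean) and the lowest for Nupl2 (-0.19).

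**Figure D5:**
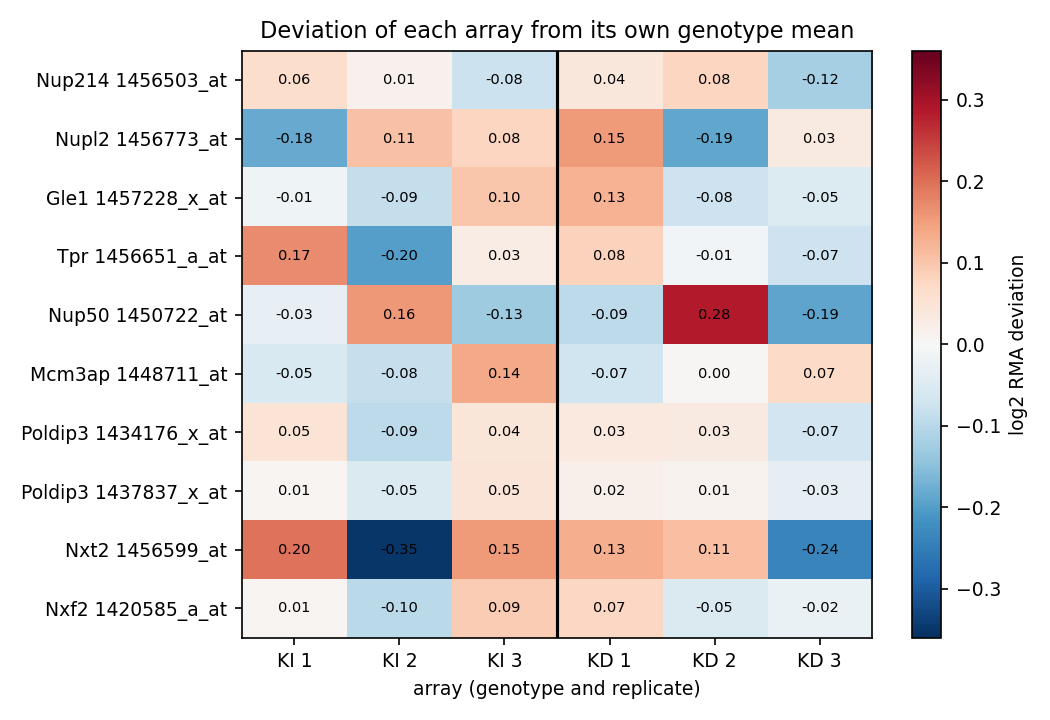
Deviation of the log2 RMA signal of each array (x axis) from the mean of its own genotype for the 10 probe sets (y axis), with the value in each cell, red above and blue below the mean. Gfi1-KI replicate 2 is blue in 7 rows, most of all for Nxt2 (-0.35), and the rows of Nup50 and Nupl2 run against each other on Gfi1-KD replicate 2.

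Among 1503 other genes of the deposited table, those whose deviations were most like those of the brighter Poldip3 probe set, the member with the highest mean RMA signal, included Tpbpa (r = 0.995 over 6 arrays) and Kcnk2 (r = 0.981). In all, 28 genes had an r above 0.9. Tpbpa and Kcnk2 had log2 RMA signals of at most 3.64 and 4.59, with differences of 0.17 and 0.15, so their likeness concerns values near the bottom of the scale.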

How the data were processed

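Biotin-labelled RNA from 3 mice per genotype was measured on Affymetrix expression arrays. Groups follow the genotype label. Replicate numbers follow the order of deposit and pair nothing, and separate animals are taken from the labels' animal numbers. The value table deposited by the authors holds intensity values, and the submitters' processing notes name MAS5. The comparison table holds log2 RMA signals, an unadjusted and a step-up p-value, a ratio and a signed fold score, per the file headers. Its group wt was read as Gfi1-KI. Software and scaling target are not given in the sources used here. The deposited ratio was recomputed from the RMA signals within 0.0045%.

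MAS5 signals under 1 were set to 1 (455 values) and log2 was taken. limma 3.58.1 in R 4.3.3 (lmFit, eBayes with trend, two-sided, Benjamini-Hochberg) was fitted on all probe sets that are not among the 64 controls and have a mean at or above the median. The SE of Nxf2 is from the same fit without the level filter. The code was tested on simulated data. An exact permutation test of 3 against 3 arrays cannot go below 0.1. Tables used Python 3.11.15 with pandas 2.3.3.

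Members and gene lists were chosen with earlier results of these data known. Named genes are all members, every list gene that the comparison table names, and the 3 genes most like the brightest member. Of these 3, 1 is not reported here. Markers were named by the same table. The number of arrays limits the precision. Promoters came from RefSeq (GRCm38.p6), without protein sequences.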

Additional observations from a re-analysis of the deposited data

How the results depend on the processing

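No alternative changed the direction of any of the 10 probe sets. Leaving out an array could not change it where the groups do not overlap. The limma test called 0 probe sets under each alternative fitted on the MAS5 signals. That test was not run on the RMA signals, which the deposited table holds only for selected probe sets. In the MAS5 fit reported, 1217 had an unadjusted p under 0.05. That count was 2311 with no level filter, 655 and 539 on leaving out Gfi1-KD replicate 1 or 3, and 2126 on leaving out Gfi1-KI replicate 1. The smallest adjusted p over these fits was 0.144, without Gfi1-KI replicate 1. The number of member probe sets whose groups do not overlap was 5 in MAS5 and 10 in the RMA signals, where 99.9% of all listed probe sets did not overlap either. The RMA count was 10 with each array left out too, an alternative chosen after seeing the data. It could not have been otherwise, since groups that do not overlap stay apart when an array is removed. There were 110 alternative values of the MAS5 differences. For the 9 probe sets above the level filter only direction and the threshold were checked, and none reversed or passed. Their size was not held against the spread between replicates (Mcm3ap in RMA was -0.31 against -0.58). That of Nxf2, below the filter, was, and 1 value moved by more than that spread, the one in RMA (0.28 against 0.97). The cause was not tested. Depth of signal limits Nxf2 and Rae1, which lie low on the scale. No paired analysis was possible because the replicate numbers follow the order of deposit and link no arrays.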
